A study of Homo sapiens with 6 samples.

Results

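The enzymes that make serine and pass its carbon to folate were examined in HCT116 colorectal cancer cells after overexpression of YY2. The 10 genes were found by name among the 50868 genes of the deposited table, and the set was chosen with earlier results of these data known. They are PHGDH, PSAT1 and PSPH for serine synthesis, SHMT1 and MTHFD1 for cytosolic folate metabolism, and SHMT2, MTHFD2, MTHFD1L, MTHFD2L and ALDH1L2 for the mitochondrion. HCT116, an established human cell line, received either empty pcDNA3.1(+) plasmid (pcCon) or a plasmid that overexpresses YY2 (pcYY2), and polyA RNA was sequenced from 3 samples of each. Transfection was transient, so untransfected cells can be present in both groups, and the share of transfected cells is not given in the sources used here. No source says that the 3 samples came from separate cultures, and p-values then measure only the spread between these samples.

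Serine is made in the cytosol from a glycolytic intermediate. PHGDH oxidises it, PSAT1 adds an amino group taken from glutamate, and PSPH removes the phosphate. SHMT1 in the cytosol and SHMT2 in the mitochondrion then split serine into glycine and a carbon unit carried by tetrahydrofolate. In the mitochondrion, MTHFD2 or MTHFD2L oxidises this unit and MTHFD1L releases it as formate, which MTHFD1 in the cytosol returns to folate for the synthesis of purines and thymidylate. ALDH1L2 oxidises mitochondrial formyltetrahydrofolate to carbon dioxide with production of NADPH. Tumor cells are known to rely on this route, and several of its genes are known targets of the transcription factor ATF4.

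Between 15158360 and 29572882 reads were counted per sample. YY2 had an FPKM (reads scaled to gene length and library total) of 1.73 to 2.52 in pcCon and 11.01 to 11.6 in pcYY2, where reads of the plasmid and of the YY2 locus cannot be told apart. Of 6 markers of colorectal epithelium, 5 passed the filter on low values, among them EPCAM at an FPKM of 68.9 to 76.8 and CDX2 at 4.06 to 4.92, whereas VIL1 had at most 2 reads in any sample. Of these, KRT8 rose in pcYY2 (log2 fold change 0.67, SE 0.0952, edgeR adjusted p = 0.0117), and the summed FPKM of the 6 was 195.7 to 203.9 in pcCon and 230.2 to 262.5 in pcYY2. None of 4 leukocyte markers passed the filter. Their summed FPKM was 0.499 to 0.685 in pcCon and 0.777 to 1.45 in pcYY2, with CD68 the highest at 29 to 85 reads. Of 5 markers of fibroblasts and endothelium, only COL1A1 passed (FPKM 1.90 to 2.66) and COL1A2 had no read. The summed FPKM of these 5 was 1.99 to 2.26 in pcCon and 2.24 to 2.88 in pcYY2. The part of these shifts in the results below was not tested.

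PHGDH and PSAT1 of serine synthesis and MTHFD2 and MTHFD1L of the mitochondrion fell in pcYY2, and neither cytosolic folate enzyme passed the test. Of the 8 members that passed the filter on low values (a mean FPKM of at least 1), 4 fell and 0 rose, at a threshold of 0.05 on p from edgeR's quasi-likelihood test after Benjamini-Hochberg adjustment. In bulk RNA, a lower level in every cell and fewer cells with the RNA cannot be told apart. Among all 12015 tested genes, 4.85% fell and 4.52% rose at this threshold. The pcCon and pcYY2 values did not overlap, with pcYY2 lower, in 6 of the 8 tested members, against 19.9% of all tested genes. MTHFD2L and ALDH1L2 lay under the filter and were read from a fit with a filter at a mean FPKM of 0.1, in which 2.19% of 18877 genes fell.

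**Figure D1:**
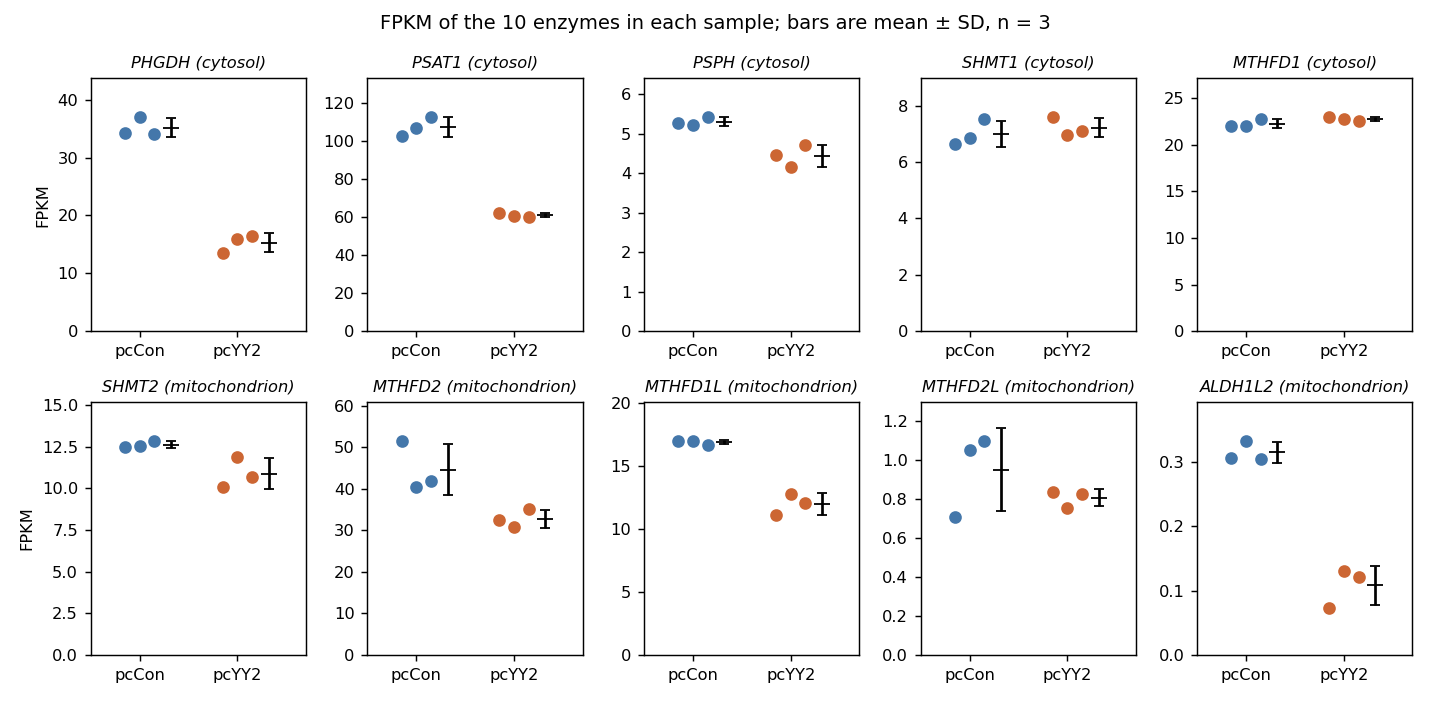
FPKM of each enzyme (vertical axes, starting at 0) in the 3 pcCon samples (blue) and the 3 pcYY2 samples (orange), with the mean and SD beside the points. The groups are apart in PHGDH, PSAT1, PSPH, SHMT2, MTHFD2, MTHFD1L and ALDH1L2, and they overlap in SHMT1, MTHFD1 and MTHFD2L.

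PHGDH (ENSG00000092621, GRCh38 chromosome 1 from 119659798 to 119744215, plus strand), the entry enzyme of the pathway, fell most among the tested members. Its FPKM was 34.3, 37.0 and 34.2 in pcCon and 13.4, 16.0 and 16.4 in pcYY2. All 3 pcYY2 samples were below the lowest pcCon sample by a wide margin, and 1489 to 4883 reads stood behind each value. On the log2 scale the change was -1.19 (SE 0.0862, adjusted p = 0.0017), a level 0.440-fold that of pcCon with a 95% confidence interval of 0.382 to 0.506. By size of decrease, PHGDH ranked 38 among the 12015 tested genes.

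PSAT1 (ENSG00000135069, chromosome 9 from 78297143 to 78330093, plus strand) catalyses the next step. It had an FPKM of 102, 107 and 112 in pcCon and 62.2, 60.5 and 60.2 in pcYY2. The pcYY2 samples were close to each other and all far below pcCon. The log2 fold change was -0.80 (SE 0.0494, adjusted p = 0.00126), and PSAT1 ranked 7 by p among all tested genes, with PHGDH at rank 18.

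PSPH (ENSG00000146733, chromosome 7 from 56011051 to 56051604, minus strand) carries out the last step. Its FPKM was 5.29, 5.22 and 5.43 in pcCon and 4.46, 4.17 and 4.72 in pcYY2. The groups did not overlap, but the log2 difference was only -0.24 (SE 0.0696), which did not pass (adjusted p = 0.0716). The pseudogene PSPHP1 was listed with 11 to 35 reads per sample, against 494 to 891 for PSPH. Over all 14 pseudogene copies of members in the table, no sample had more than 35 reads on any copy.

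The steps of serine synthesis were also set against each other within each sample. The log2 ratio of PHGDH to PSAT1 was -1.61 ± 0.099 (SD, n = 3) in pcCon and -1.999 ± 0.183 in pcYY2, a difference of -0.39. The ratio of PHGDH to PSPH moved by -0.95, from 2.73 ± 0.0892 to 1.78 ± 0.176, and that of PSAT1 to PSPH by -0.56, from 4.33 ± 0.0515 to 3.78 ± 0.0962. In each of these 3 ratios the groups did not overlap, which gives an exact two-sided permutation p of 0.1 (adjusted p = 0.1 over the 3 ratios), the smallest that 3 samples against 3 allow. These 3 ratios were chosen after the values were seen.

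**Figure D2:**
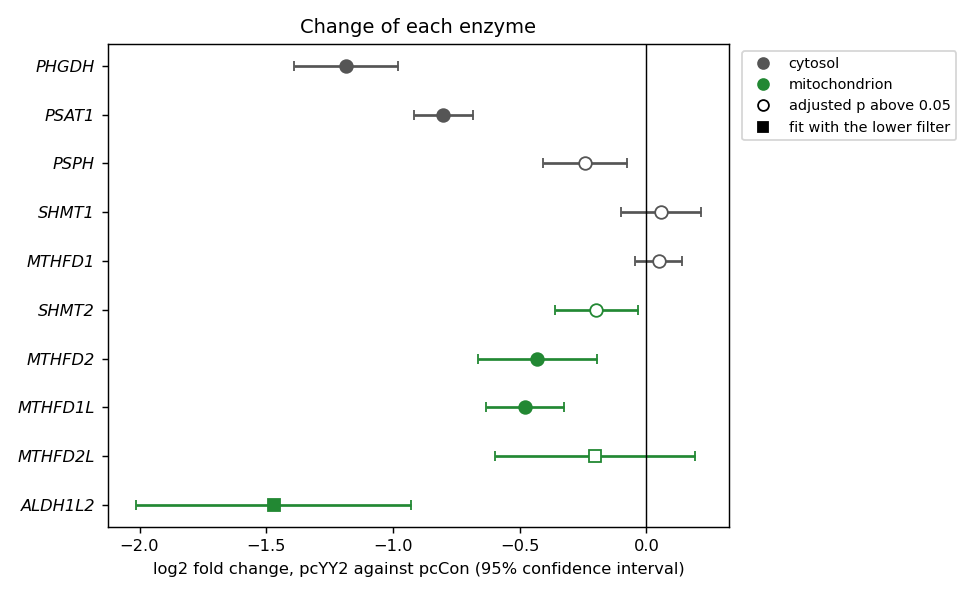
Log2 fold change of pcYY2 against pcCon (horizontal axis) with 95% confidence intervals from edgeR for the 10 enzymes, cytosolic in gray and mitochondrial in green. Filled symbols have an adjusted p of 0.05 or less and squares come from the fit with the lower filter. PHGDH and ALDH1L2 lie farthest to the left, at -1.19 and -1.47, and the intervals of SHMT1, MTHFD1 and MTHFD2L include 0.

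SHMT1 (ENSG00000176974, chromosome 17 from 18327860 to 18363563, minus strand), the cytosolic serine hydroxymethyltransferase, had an FPKM of 6.65, 6.85 and 7.53 in pcCon and 7.60, 6.95 and 7.12 in pcYY2. The groups overlapped, with the highest pcCon sample above 2 of the 3 pcYY2 samples. Its log2 fold change was 0.06, with a 95% confidence interval of -0.10 to 0.21 (adjusted p = 0.616). MTHFD1 (ENSG00000100714, chromosome 14 from 64388031 to 64463457, plus strand), the cytosolic enzyme that joins the dehydrogenase, cyclohydrolase and formate ligase activities in a single protein, had an FPKM of 21.98, 22.003 and 22.8 in pcCon and 22.99, 22.8 and 22.6 in pcYY2. It had between 4148 and 8089 reads per sample and varied little, and its log2 fold change was 0.05 with an interval of -0.04 to 0.14 (adjusted p = 0.452). A change of MTHFD1 below 0.97-fold or above 1.10-fold lies outside that interval. SHMT1 shares 197 exonic bases with SMCR8 on the opposite strand (1076 to 2310 reads per sample). MTHFD1 shares 1556 with a noncoding RNA gene on the opposite strand (3 to 18 reads per sample). MTHFD2, described below, shares 1324 with SLC4A5, also on the opposite strand (24 to 55 reads per sample). The sources used here do not say whether counting used the strand. The part of shared exons in the levels was not tested.

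SHMT2 (ENSG00000182199, chromosome 12 from 57229327 to 57234935, plus strand), the mitochondrial counterpart of SHMT1, had an FPKM of 12.5, 12.5 and 12.9 in pcCon and 10.1, 11.9 and 10.7 in pcYY2. The pcYY2 samples were all lower, and pcYY2 sample 2 came closest to pcCon. The log2 fold change was -0.20 (SE 0.0691, adjusted p = 0.116), which did not pass. Without pcYY2 sample 2 it was -0.27 and passed (adjusted p = 0.0427).

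MTHFD2 (ENSG00000065911, chromosome 2 from 74198562 to 74217565, plus strand), the main mitochondrial dehydrogenase and cyclohydrolase of proliferating cells, had an FPKM of 51.6, 40.4 and 41.9 in pcCon and 32.6, 30.8 and 35.1 in pcYY2. The groups did not overlap, and pcCon sample 1 stood above the other pcCon samples. The log2 fold change was -0.43 (SE 0.0987, adjusted p = 0.043). This call was lost when any of the 6 samples was left out (adjusted p 0.0656 to 0.11), and without pcCon sample 1 the log2 fold change was -0.32. It was also lost with the lower filter (adjusted p = 0.0563).

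MTHFD1L (ENSG00000120254, chromosome 6 from 150865549 to 151101887, plus strand), which yields formate in the mitochondrion, had an FPKM of 17.0, 17.0 and 16.7 in pcCon and 11.1, 12.8 and 12.1 in pcYY2. The pcCon samples spanned only 1.88% of their mean, and every pcYY2 sample was lower. The log2 fold change was -0.48 (SE 0.0653, adjusted p = 0.0102), 0.718-fold with an interval of 0.645 to 0.799. The call was kept without each of the 6 samples.

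MTHFD2L (ENSG00000163738, chromosome 4 from 74114174 to 74303099, plus strand), the close relative of MTHFD2, had a low FPKM of 0.705, 1.05 and 1.10 in pcCon and 0.834, 0.756 and 0.827 in pcYY2. The groups overlapped because pcCon sample 1 was the lowest of all. With the lower filter the log2 fold change was -0.20 (interval -0.60 to 0.19, adjusted p = 0.528).

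ALDH1L2 (ENSG00000136010, chromosome 12 from 105019784 to 105084577, minus strand) had the lowest level of the 10 members and the most negative log2 fold change, in the fit with the lower filter. Its FPKM was 0.307, 0.334 and 0.305 in pcCon and 0.073, 0.13 and 0.122 in pcYY2, with 16 to 87 reads behind each value. The groups were far apart, and the change on the log2 scale was -1.47 (SE 0.233, adjusted p = 0.018), 0.361-fold with an interval of 0.248 to 0.526. The call was lost without each of 4 samples, namely pcCon sample 1, 2 or 3 or pcYY2 sample 3 (adjusted p 0.0555 to 0.0728). ALDH1L2 also shares 131 exonic bases with WASHC4, which had 1260 to 1936 reads, and 145 with NOPCHAP1, both on the opposite strand.

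Cytosolic and mitochondrial enzymes were set side by side. Of the 5 cytosolic members 2 fell, both in serine synthesis, and of the 3 mitochondrial members tested 2 fell. Leaving out pcCon sample 1, 2 or 3 or pcYY2 sample 1 or 3 left 1 mitochondrial call. The median log2 fold change was -0.24 in the cytosol and -0.43 in the mitochondrion, against 0.002 over all tested genes, a difference of -0.19 between the compartments that became -0.067 without pcCon sample 1. Within the cytosol, the median was -0.80 for serine synthesis and 0.05 for SHMT1 and MTHFD1. The summed count of serine synthesis was 578 ± 16.7 CPM (reads scaled to the library total, SD, n = 3) in pcCon and 305 ± 9.27 in pcYY2. That of the 5 mitochondrial enzymes was 794 ± 52.7 and 609 ± 21.8, and that of SHMT1 and MTHFD1 was 342 ± 10.6 and 350 ± 5.49. These sums are not scaled to length. MTHFD2, with 4739 to 8926 reads per sample, had the most reads of the 5 mitochondrial enzymes in every sample.

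Enzymes that carry out like reactions in the different compartments were then compared as a ratio within each sample. The log2 ratio of MTHFD1L to MTHFD1 was -0.37, -0.37 and -0.45 in pcCon and -1.05, -0.83 and -0.90 in pcYY2. The groups were clearly apart, with a difference of -0.53. The log2 ratio of MTHFD2 to MTHFD1 was 1.23, 0.88 and 0.88 in pcCon and 0.50, 0.44 and 0.63 in pcYY2, a difference of -0.47, again without overlap. For both, the exact two-sided permutation p was 0.1 (adjusted p = 0.2 over 4 pairs), and 0.1 is the smallest value this design can give. The log2 ratio of SHMT2 to SHMT1 was 0.91, 0.87 and 0.77 in pcCon and 0.41, 0.78 and 0.59 in pcYY2. Here pcYY2 sample 2 reached into the pcCon range, and the difference of -0.26 had an exact permutation p of 0.2 (adjusted p = 0.267). With 1 added to each FPKM before the ratio, the difference was -0.24 with an exact permutation p of 0.1, unadjusted. The ratio of MTHFD2 to MTHFD2L, both mitochondrial, was 6.19, 5.27 and 5.25 in pcCon and 5.29, 5.35 and 5.41 in pcYY2, with an exact permutation p of 1. Its difference of -0.22 became 0.087 without pcCon sample 1. With 1 added to each FPKM it was -0.32 with an unadjusted exact permutation p of 0.1, and MTHFD2L itself had an FPKM near 1. The pair of ALDH1L2 and its cytosolic relative ALDH1L1 was not compared, since ALDH1L1 had 0 to 7 reads per sample.

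**Figure D3:**
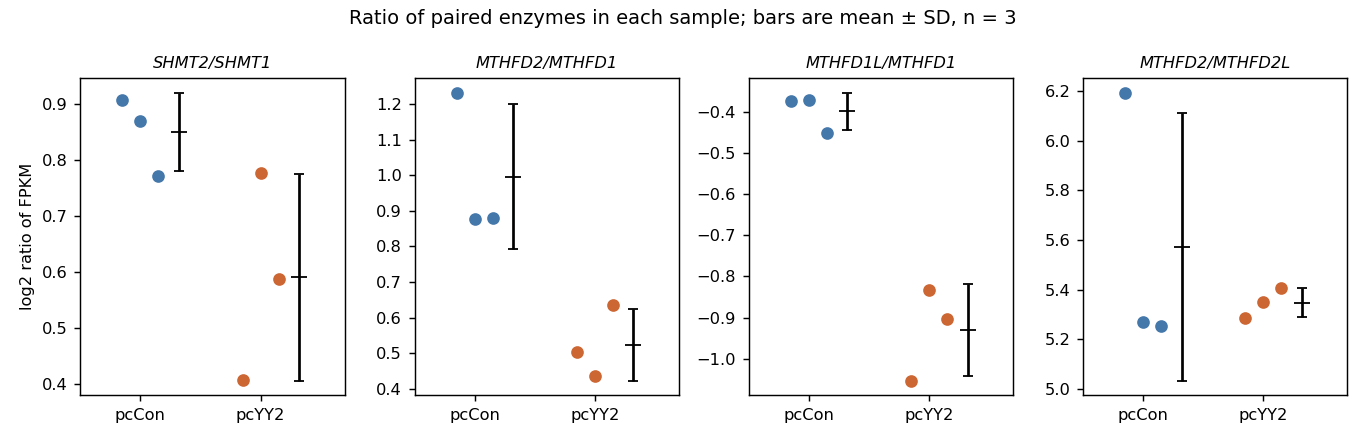
Log2 ratio of FPKM (vertical axes, each with its own range) for 4 enzyme pairs in each sample, with the mean and SD beside the points. The pcYY2 samples (orange) lie below all pcCon samples (blue) for MTHFD2/MTHFD1 and MTHFD1L/MTHFD1, and the groups overlap for SHMT2/SHMT1 and MTHFD2/MTHFD2L.

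Levels of different enzymes can be compared only per length, and the deposited FPKM rests on lengths that differ from those of the transcripts. For SHMT2 it implies a length of 17952 bases, although the locus spans 5609 bases and the canonical transcript in GENCODE 44 has 2157. The implied length was 8.32 times the canonical length for SHMT2, 7.01 times for MTHFD2L, 3.87 times for PHGDH and 1.21 times for PSAT1, with a median of 2.12 over 11917 tested genes. A fixed length per gene does not alter a change between groups. It does alter the order of the enzymes, in which SHMT2 ranked 6 in pcCon by FPKM and 3 by reads scaled to the canonical length and the library total.

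On the latter scale, PHGDH (136 ± 6.22, SD, n = 3) and PSAT1 (129 ± 6.08) were the highest in pcCon, and their ranges overlapped. SHMT2 (105 ± 1.77) and MTHFD2 (96.3 ± 13.1) followed and overlapped each other. Below them came MTHFD1 (84.7 ± 1.80), MTHFD1L (35.6 ± 0.361), SHMT1 (29.5 ± 1.96), PSPH (19.5 ± 0.388), MTHFD2L (6.67 ± 1.502) and ALDH1L2 (0.606 ± 0.0307), with no overlap between neighbors. In pcYY2, SHMT2 (90.6 ± 7.73) and MTHFD1 (86.7 ± 0.732) led with overlapping ranges. PSAT1 (73.5 ± 1.31) and MTHFD2 (70.8 ± 4.61) came next, and PHGDH (59.3 ± 6.28) was at rank 5. MTHFD1L (25.3 ± 1.82) lay below SHMT1 (30.4 ± 1.43) in pcYY2, with no overlap, and above it in pcCon. This change of order depends on the length used. By deposited FPKM, mean MTHFD1L was above mean SHMT1 in pcCon (16.9 against 7.01) and in pcYY2 (12.0 against 7.22). Overlap of ranges describes the spread between samples, not the uncertainty of the lengths or of reads in exons shared with other genes.

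**Figure D4:**
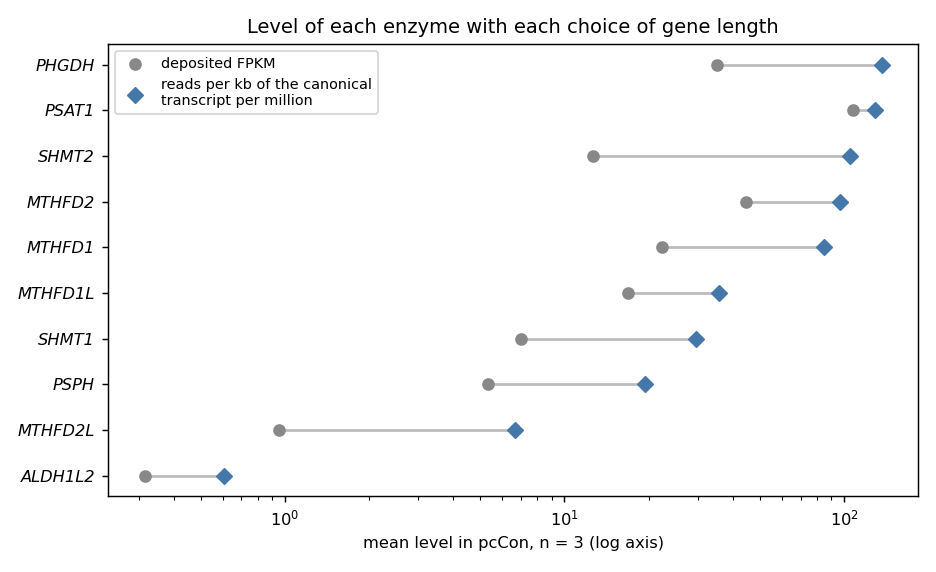
Mean level of each enzyme in the 3 pcCon samples on a log axis, as deposited FPKM (gray circles) and as reads scaled to the canonical length and the library total (blue diamonds). SHMT2 moves from 12.6 to 105 and MTHFD2L from 0.951 to 6.67, and PSAT1 moves least, from 107 to 129.

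RefSeq promoter windows, from 250 bases before to 50 after an annotated start (GRCh38.p14), were at hand for 7 members in 11 windows, and none was given for PSPH, SHMT2 or ALDH1L2. They were searched on both strands for TGATGNAA, the core of the element bound by ATF4, for CCATNTT, a core of the YY1 motif whose zinc fingers YY2 shares, and for the E-box CACGTG bound by MYC. Of all 35116 windows, 3.62% hold the first, 15.6% the second and 7.26% the third. The windows below are those of members with a match, namely PSAT1 and MTHFD1L, which fell, and MTHFD1, the cytosolic counterpart of MTHFD1L, which did not pass the test. Capitals mark the matches.
PSAT1, chr9:78296875-78297174, plus strand: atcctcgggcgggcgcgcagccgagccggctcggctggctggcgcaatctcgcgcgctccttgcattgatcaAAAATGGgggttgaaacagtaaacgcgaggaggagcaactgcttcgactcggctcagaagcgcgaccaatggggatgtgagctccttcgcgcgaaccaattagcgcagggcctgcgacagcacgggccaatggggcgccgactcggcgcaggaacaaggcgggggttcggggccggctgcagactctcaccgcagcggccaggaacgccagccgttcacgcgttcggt
MTHFD1L, chr6:150866197-150866496, plus strand: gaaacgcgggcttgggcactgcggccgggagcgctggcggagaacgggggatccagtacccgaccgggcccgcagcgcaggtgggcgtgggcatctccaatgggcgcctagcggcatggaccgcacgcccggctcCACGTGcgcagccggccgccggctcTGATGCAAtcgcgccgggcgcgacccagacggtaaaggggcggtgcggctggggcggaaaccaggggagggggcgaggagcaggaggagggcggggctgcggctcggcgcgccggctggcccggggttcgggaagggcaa
MTHFD1, chr14:64388103-64388402, plus strand: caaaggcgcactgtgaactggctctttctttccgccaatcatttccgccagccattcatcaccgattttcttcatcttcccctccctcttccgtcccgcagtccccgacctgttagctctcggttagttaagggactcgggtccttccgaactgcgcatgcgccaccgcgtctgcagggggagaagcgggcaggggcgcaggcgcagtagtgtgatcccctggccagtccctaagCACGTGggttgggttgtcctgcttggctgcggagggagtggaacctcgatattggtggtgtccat

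In PSAT1 the YY1 core lies on the opposite strand, and its match begins, in the direction of the gene, 178 bases before the start. In MTHFD1L the E-box begins 115 bases and the ATF4 core 90 bases before this start, and the same letters stand in 3 overlapping windows of the gene. In MTHFD1 the E-box begins 15 bases before the start. The windows of PHGDH, MTHFD2, SHMT1 and MTHFD2L and of a start farther inside MTHFD1L hold none of these letters. A match describes letters only and is no measure of binding.

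Beyond the members, lists of other folate, transport, glycine, methionine and regulator genes were counted. These counts are read against the 4.85% of all tested genes that fell and the 4.52% that rose, and nothing is called particular to a list. Of 14 other folate enzymes 10 were tested, of which 1 rose, 1 fell and 8 did not pass, with a median log2 fold change of 0.04. MTHFS, another enzyme of folate metabolism, rose from an FPKM of 4.41, 5.50 and 5.72 to 8.91, 7.59 and 9.98 (log2 fold change 0.77, SE 0.145, adjusted p = 0.0251). The call was lost without each of 5 samples, all but pcYY2 sample 2 (adjusted p 0.0546 to 0.0748). GART, which uses formyltetrahydrofolate in purine synthesis, fell from 23.05, 26.3 and 26.1 to 19.8, 19.3 and 17.5 (-0.40, SE 0.0718, adjusted p = 0.0232). Its call was lost without pcCon sample 2 or 3 or pcYY2 sample 2 or 3 (adjusted p 0.0529 to 0.0828).

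None of the 9 tested genes for folate and serine transport passed in edgeR. The smallest p values were those of SLC1A4, a carrier of serine and other neutral amino acids (log2 fold change -0.47, adjusted p = 0.0613), and SFXN3, of the family of mitochondrial serine carriers (0.27, adjusted p = 0.0696). None of 4 tested genes of glycine cleavage and mitochondrial methyl donors passed either, the nearest being GCAT (-0.28, adjusted p = 0.132) and DLD (-0.15, adjusted p = 0.282). DMGDH, the mitochondrial dimethylglycine dehydrogenase, lay under the filter with 14 to 52 reads per sample. With the lower filter it fell by 1.41 on the log2 scale (SE 0.247, adjusted p = 0.0255), and it was singled out after its values were seen. Of 6 tested genes of the methionine cycle and transsulfuration, 1 fell. This was MAT2A, which makes S-adenosylmethionine, with an FPKM of 77.7, 79.7 and 77.1 in pcCon and 64.8, 66.3 and 62.0 in pcYY2 (-0.27, SE 0.0407, adjusted p = 0.0149). This call was lost without pcCon sample 1, 2 or 3 or pcYY2 sample 3 (adjusted p 0.0522 to 0.0652).

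Among 4 tested regulators known for serine synthesis genes, none passed. ATF4 mRNA had an FPKM of 119, 122 and 122 in pcCon and 103, 115 and 109 in pcYY2. All pcYY2 samples were lower, and the log2 fold change was -0.14 (interval -0.25 to -0.02, adjusted p = 0.125). For EHMT2, a histone methyltransferase, the value was 0.15 (adjusted p = 0.267). MYC lay under the filter, with an FPKM of 0.582, 0.703 and 1.16 in pcCon and 0.655, 0.675 and 0.643 in pcYY2. With the lower filter its log2 fold change was -0.27 (edgeR adjusted p = 0.577). ATF4 is known to be controlled largely in translation, which these data do not measure.

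**Figure D5:**
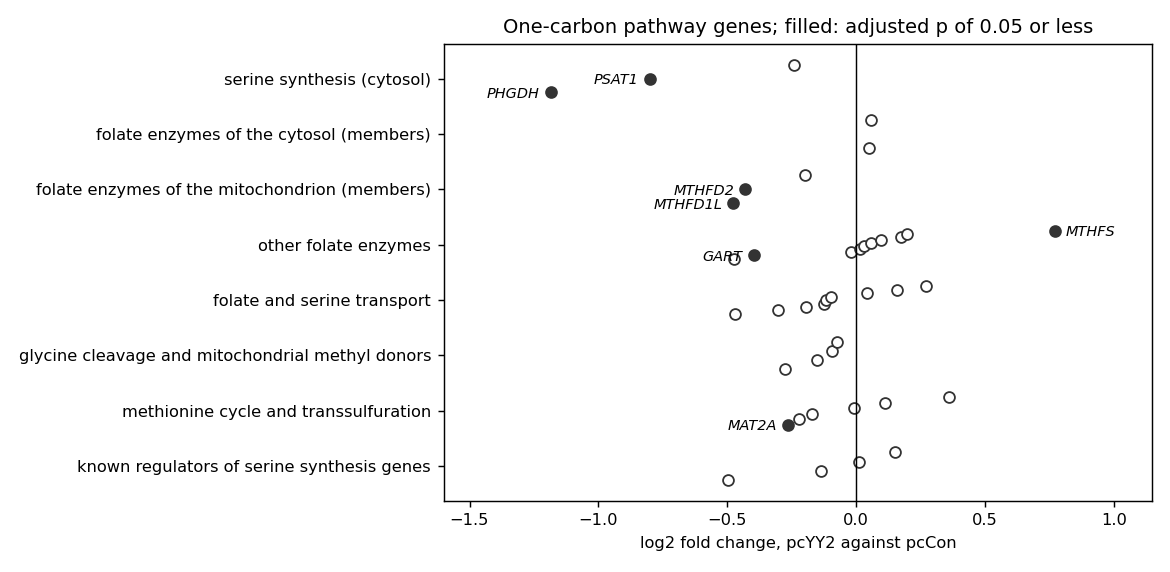
Log2 fold change of pcYY2 against pcCon (horizontal axis) for each tested gene of 8 pathway lists (rows), with filled points for an adjusted p of 0.05 or less. The 4 members that fell are PHGDH, PSAT1, MTHFD2 and MTHFD1L, and outside the members only MTHFS, GART and MAT2A are filled.

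The genes most like PSAT1 over the 6 samples, by Euclidean distance of log2 CPM centred on the pcCon mean, were FAM129A (distance 0.189), HBE1 (0.196), SPRY4 (0.227), LL22NC03-2H8.5 (0.236) and IL17RD (0.243). Their log2 fold changes were between -0.87 and -0.71, and such closeness follows from the measure, which includes the size of the change. By the same measure MTHFD1L, which fell less than PSAT1, ranked 206 among the genes around it. PHGDH, which fell more, ranked 494. The genes most like MTHFD1L were FASTKD3 (0.0841), NEK6 (0.112), ZNF304 (0.118), ARNT2 (0.119) and FUT11 (0.126). Around MTHFD1L, MTHFD2 ranked 435, PSPH 980, SHMT2 1061, PSAT1 1849, MTHFD1 6150, SHMT1 6751 and PHGDH 9561. No member was among the 5 genes closest to another in either comparison, though a difference in the size of the fall alone sets genes apart by this measure.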

How the data were processed

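RNA-Seq data of 6 samples of HCT116 cells were analysed as pcYY2 against pcCon, 3 samples each, grouped by their titles. Per the methods, the authors filtered the reads and mapped them to GRCh38 with TopHat. The submitters' processing notes also name Bowtie2 and HTSeq. The methods name Cufflinks for the FPKM values and Cuffdiff for differential expression. In the deposited table, the counts are whole numbers of reads per gene, not normalized. Set against these counts, the deposited FPKM values were read as scaled to a fixed length per gene and the total count of the sample. This scaling is inferred from the values and is not stated in the methods.

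The counts of 12015 genes whose FPKM averaged 1 or more entered edgeR 4.0.16 (quasi-likelihood test, TMM, R 4.3.3), and p-values were adjusted by Benjamini-Hochberg with a threshold of 0.05. TMM factors were between 0.989 and 1.01. The SE was taken as the absolute log2 change over the root of the F statistic, and 95% confidence intervals use edgeR's degrees of freedom. Ratios of enzymes were tested with exact two-sided permutation tests. The scripts were tested on simulated data. The limit that a count of 0 allows, 3 reads, was 0.101 to 0.198 CPM per sample and covers counting error only.

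Every pair of samples within a group differed by more than counting error (chi-square per gene of 13.5 or more). The members and gene lists were chosen with earlier results of these data known. Genes named by rule are the members, YY2, list genes that passed or else the 2 with the smallest p per list, and pseudogene copies. The rule also takes the 5 nearest genes to the member with the smallest p in each compartment. Some genes, among them MYC, DMGDH, CBS, CTH and NFE2L2, were named outside this rule. Alternatives were other filters, RLE and upper quartile scaling, DESeq2 1.42.0, limma 3.58.1 on log2(FPKM + 1) or log2(FPKM + 0.1), the replicate block and leaving out each sample. Gene lengths came from GENCODE 44.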

Additional observations from a re-analysis of the deposited data

How the results depend on the processing

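PHGDH and PSAT1 kept their direction and call in all 15 alternatives (log2 fold change -1.24 to -1.10 and -0.84 to -0.76), and MTHFD1L in 14. SHMT1, MTHFD1 and PSPH did not pass in any. MTHFD2 passed in 7 of 15, with DESeq2 giving the smallest adjusted p (0.0012). Samples with the same number did not deviate together (r of -0.0274, -0.0318 and -0.0175 over 12015 genes, and no sample correlated best with its own number), so the numbers are not treated as pairs. With the replicate block, 51 genes rose and 50 fell. PHGDH and PSAT1 still passed (adjusted p = 0.0301 and 0.0306), and 0 mitochondrial members, 0 other folate enzymes and 0 methionine genes did. MTHFD1L then had an adjusted p of 0.0566 at a log2 fold change of -0.48, MTHFD2 one of 0.0828 and, with the lower filter, ALDH1L2 one of 0.0602 at -1.51. The block costs residual degrees of freedom.

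With each sample left out, 138 to 412 genes rose and 147 to 393 fell, 1 to 2 mitochondrial members passed, and the difference between compartments was -0.247 to -0.067. In the same fits 0 to 1 other folate enzymes, 0 to 1 transport genes and 0 to 2 methionine genes passed. The difference in the log2 ratio of MTHFD2 to MTHFD2L was -0.383 to 0.087 and reversed without pcCon sample 1. At a filter of 0.1 on mean FPKM, without a filter, and with filterByExpr, 1 gene of the glycine list passed. The cause of these shifts was not tested. The alternatives for ALDH1L2 and MTHFD2L at the lower filter, other than the filters themselves, were chosen after seeing the data. Members with few reads limit precision, ALDH1L2 above all.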

Other observations

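CBS, the first enzyme of transsulfuration, and the near-identical CBSL were both listed with 0 reads in all 6 samples. The sources used here do not say whether reads that fit both copies were counted. The 0 reads therefore do not show that CBS mRNA was absent, and its level cannot be read from these data. CTH, the other transsulfuration gene listed, had an FPKM of 3.05 ± 0.162 (SD, n = 3) in pcCon and 3.27 ± 0.269 in pcYY2. NFE2L2, a regulator of serine synthesis genes in other cells, had an FPKM of 5.27, 14.7 and 13.8 in pcCon and 6.74, 13.4 and 3.46 in pcYY2. Its log2 fold change was -0.50 with a wide 95% confidence interval of -1.78 to 0.79 (edgeR adjusted p = 0.586). These genes were singled out after their values were seen.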
